A study of Mus musculus with 6 samples.

Results

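The Rab GTPases are small GTP-binding proteins that direct membrane traffic. In macrophages grown with myeloma cells, 22 of 58 Rab genes rose and 2 fell when CSF1R was targeted by an antibody, while 12.5% of all genes rose and 16.0% fell. Members were taken by symbol, as Rab followed by digits, an optional letter and an optional digit and nothing else, which leaves out genes of Rab-binding proteins such as Rab3il1. They made up 58 of the 22180 genes measured. Rab4b also fits the name pattern, but its probe sets carry further symbols and were not used for the family. Macrophages had been raised from bone marrow of 3 C57BL/KaLwRij mice over 7 days in M-CSF and kept overnight with the murine myeloma line 5TGM1-luc. They were then treated for 3 days with an anti-mouse CSF1R antibody at 0.5 nM or with a control IgG antibody. All cultures thus held myeloma cells and were washed 4 times against them before RNA was taken, and no macrophages without myeloma cells are compared here. The 3 antibody arrays and the 3 IgG arrays measured whole transcripts of these washed cultures, and the labels do not tie an array to a mouse, so the spread behind each p-value may be technical.

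A Rab protein cycles between a GTP-bound form, which sits on one type of membrane and recruits effectors, and a GDP-bound form that is drawn off into the cytosol. Guanine nucleotide exchange factors (GEFs) switch it on, GTPase-activating proteins (GAPs) switch it off, and a geranylgeranyl lipid anchor at the tail holds it in the membrane. In macrophages, Rab5 and Rab7 mark the passage of a phagosome from an early to a late, degradative stage, and other Rabs carry receptors and cytokines to and from the surface.

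The array values are log2 intensities, and "called" means an adjusted p under 0.05 in limma with Benjamini-Hochberg adjustment over all 22180 genes. Each array had a median of 4.88 to 4.95, and correlations over all probe sets were 0.992 to 0.993 within a group and 0.984 to 0.985 between groups. Odorant and pheromone receptor genes, which macrophages have little known use for, gave a guide to background of 4.92, the 95th percentile of their means. In 1 group or both, 48 Rab genes exceeded it, and the other 10 were below it in both. All 9 macrophage markers listed, Csf1r among them, rose (median 1.21), and their summed linear intensity was 28639 to 29778 with the antibody against 16049 to 16770 with IgG. Of 10 plasma cell and myeloma markers, 6 fell (median -0.30), with sums of 12425 to 13943 against 16017 to 16298. Such transcripts were still measured after the washes, with 8 of the 10 markers above the guide in at least 1 group and Ighm, the IgM heavy chain gene, at 12.74 with the antibody and 12.88 with IgG. Of 9 stromal markers, 6 fell and 1 rose, with sums of 1048 to 1119.8 against 2043 to 2090.1. The summed granulocyte markers were 136 to 139 against 139 to 141 (8 genes, none called) and those of dendritic cells 734 to 845 against 761 to 779 (5 of 6 genes measured, none called). Sums for the 5 T cell markers were 360.1 to 375 against 131 to 153, where Cd4 alone was called, macrophages can express it, and Cd3d, Cd3e and Cd3g lay below the guide. No marker was listed at 0. These shifts ran beside every Rab result that follows, and their part in it was not tested. In such bulk RNA, fewer cells of a type and less RNA per cell cannot be told apart.

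The sequences below are the 250 bases before the annotated start of 4 members whose level changed, 3 that rose strongly (Rab31, Rab19, Rab8b) and 1 that fell (Rab23), to show what precedes genes of this family. They come from RefSeq on GRCm38.p6, read 5′ to 3′ along the gene, at chr17:65772753-65773002 (minus strand) for Rab31, chr6:39381103-39381352 (plus) for Rab19, chr9:66919706-66919955 (minus) for Rab8b and chr1:33719646-33719895 (plus, 1 of 2 entries) for Rab23. Capitals mark every match, on either strand, to 7 short motifs. The Rab23 entry shown was taken because it holds a match, and its other entry holds none.
Rab31: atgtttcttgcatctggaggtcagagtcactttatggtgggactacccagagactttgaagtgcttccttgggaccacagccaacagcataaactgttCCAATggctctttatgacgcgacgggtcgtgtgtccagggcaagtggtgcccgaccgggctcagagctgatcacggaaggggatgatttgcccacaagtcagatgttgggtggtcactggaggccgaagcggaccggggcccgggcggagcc
Rab19: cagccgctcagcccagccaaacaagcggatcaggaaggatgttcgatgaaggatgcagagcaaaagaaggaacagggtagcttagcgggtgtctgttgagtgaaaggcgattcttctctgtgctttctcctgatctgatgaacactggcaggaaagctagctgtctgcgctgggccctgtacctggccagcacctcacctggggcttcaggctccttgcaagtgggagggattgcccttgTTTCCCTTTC
Rab8b: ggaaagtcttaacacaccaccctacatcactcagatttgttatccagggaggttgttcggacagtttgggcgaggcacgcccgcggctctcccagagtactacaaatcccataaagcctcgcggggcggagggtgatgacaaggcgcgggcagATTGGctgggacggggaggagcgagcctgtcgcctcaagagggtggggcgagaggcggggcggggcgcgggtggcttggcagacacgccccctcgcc
Rab23: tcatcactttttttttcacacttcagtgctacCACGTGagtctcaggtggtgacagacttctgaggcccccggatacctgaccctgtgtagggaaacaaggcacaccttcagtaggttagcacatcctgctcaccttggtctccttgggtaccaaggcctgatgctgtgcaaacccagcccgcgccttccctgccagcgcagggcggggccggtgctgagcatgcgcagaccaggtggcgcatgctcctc

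The motifs were the E-box CACGTG, the lysosomal gene (CLEAR) core TCACGTGA, which contains that E-box, the PU.1 site GAGGAAGT, the interferon-stimulated response element core, the AP-1 site TGANTCA, the CCAAT box and the TATA box TATAAA, each sought on both strands. Promoter entries were matched for 47 of the 58 members, with 59 starts in all, and the promoters of the other 11, Rab7b among them, are not analysed here. CCAAT occurred before 39.0% of Rab starts and 33.8% of all 32851 starts, and TATAAA before 6.78% and 12.4%. CACGTG preceded 8.47% of Rab starts (Rab20, Rab21, Rab23, Rab27a and Rab5a) against 6.02% of all. TCACGTGA preceded 3.39% of Rab starts, those of Rab21 and Rab5a, against 0.785% of all. The interferon core was found before Rab19 alone, where it lies next to the start, or 1.69% of Rab starts against 2.98% of all. GAGGAAGT preceded Rab32 and Rab2b (3.39% of Rab starts, 2.44% of all), and TGANTCA preceded Rab34 and Rab15 (3.39% of Rab starts, 6.75% of all). A match is a run of letters and does not show that a factor binds there.

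In all, 24 members were called, or 41.4%, beside 28.5% of all genes. Of members, 37.9% were called higher, where 12.5% of all genes tested were. Only 3.45% of members were called lower, where the share of all genes was 16.0%. The median difference, antibody minus IgG on the log2 scale, was 0.17 over the 58 members and -0.02 over all genes, and 45 members had a difference above 0. With cyclic loess scaling the family median was 0.26, with 27 members higher and 2 lower. That scaling also turned the split of all genes from 2766 higher and 3548 lower to 3334 and 2444. Most changes in the family were modest. At least 2-fold changes were limited to the rises of Rab7b, Rab31 and Rab19 (2.95% of all genes changed that much), and 7 members rose at least 1.5-fold (6.18% of all genes did). The 3 values of one group lay wholly apart from those of the other for 30 members, or 51.7%, where 39.3% of all genes did so. The shares over all genes include 9064 genes below the guide in both groups. Above it, 24 of 48 Rab genes were called, or 50%, beside 46.1% of all such genes, and groups lay apart for 58.3% and 59.8%. By direction, 45.8% of these 48 were higher and 4.17% lower, beside 20.1% and 26.0% of all genes above the guide.

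**Figure D1:**
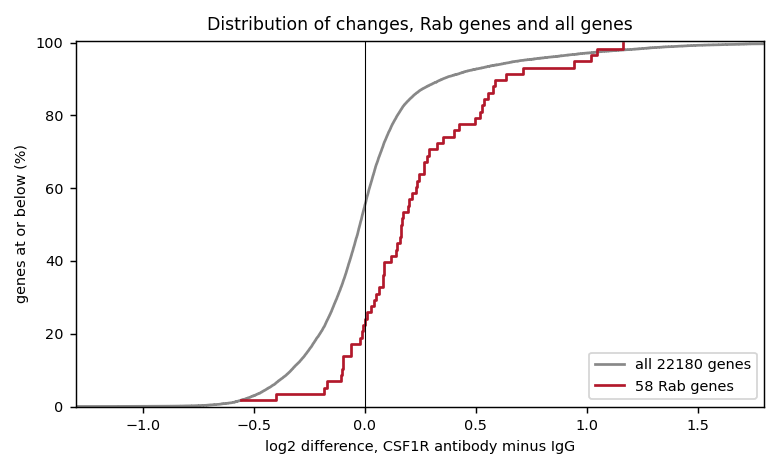
Share of genes (%, vertical axis) with a log2 difference, antibody minus IgG, at or below the value on the horizontal axis, for the 58 Rab genes (red) and all 22180 genes (grey, axis limited to the central range). The Rab line lies to the right of the grey line over most of the range, with medians of 0.17 and -0.02, and both meet near the largest rises.

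**Figure D2:**
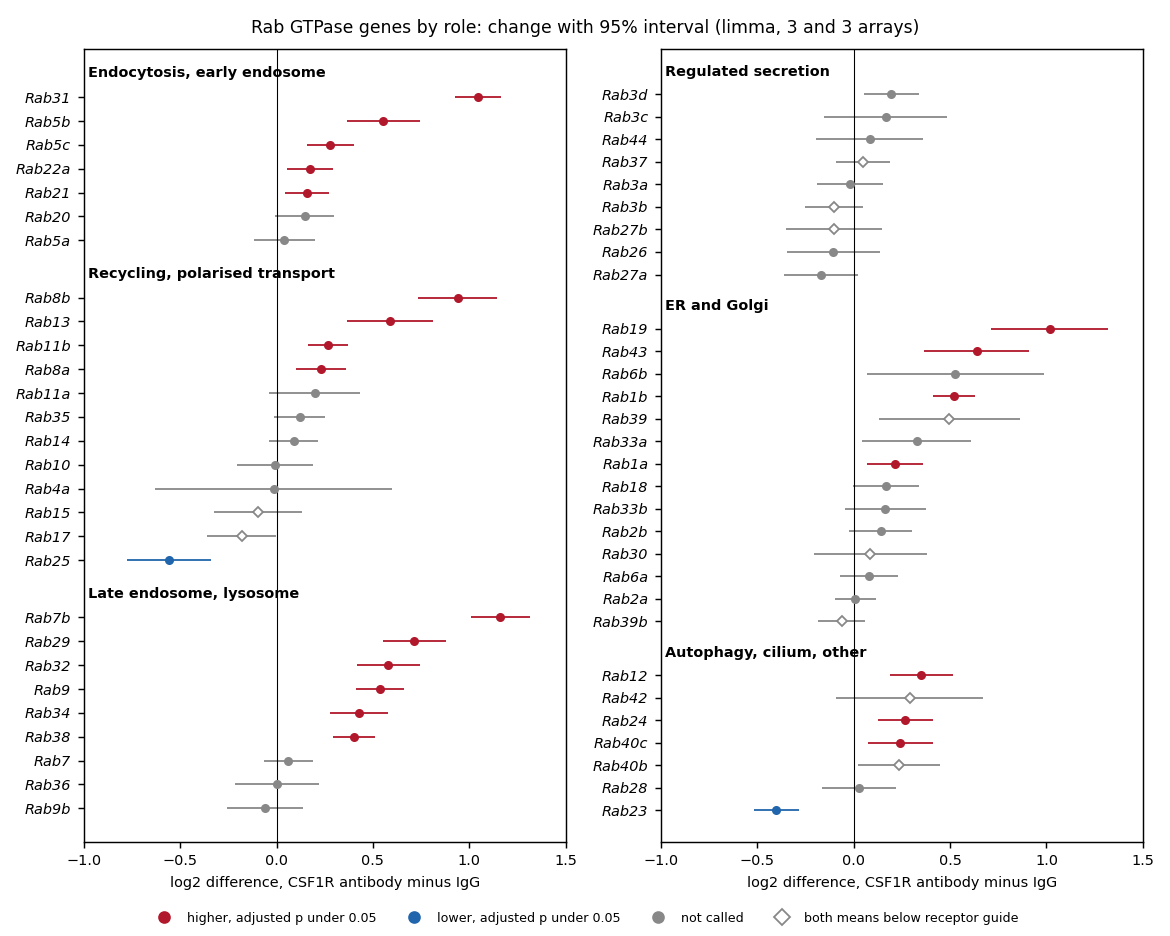
Log2 difference, antibody minus IgG, of each Rab gene with its 95% interval from limma (3 and 3 arrays), grouped by the role assigned here. Red and blue points were called higher and lower, grey points were not called, and open diamonds had both means below the background guide. The 9 secretion genes cluster around 0, while 6 of 9 late endosome and lysosome genes and 5 of 7 endocytosis and early endosome genes were called higher.

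The largest rise in the family was at the late endosome and lysosome. Of 9 members placed there, 6 rose, with a median of 0.43 over the 9, while Rab7, Rab36 and Rab9b were not called. Roles were assigned here, 1 per gene, though some members act in several places, and another grouping could give other counts. Each role count stands beside 12.5% of all genes higher and 16.0% lower, or 20.1% and 26.0% of those above the guide. Rab7b, a late endosomal Rab that controls Toll-like receptor traffic in macrophages, read 10.34, 10.37 and 10.43 on the antibody arrays and 9.18, 9.14 and 9.33 on the IgG arrays. The groups were more than 1 log2 unit apart at their closest, and the rise was 1.16 (SE 0.06; 2.24-fold; limma adjusted p = 4.0e-05), larger than the change of 98.0% of all genes. Rab29, which recruits the kinase LRRK2 to membranes, stood at 8.61, 8.61 and 8.71 against 7.82, 8.03 and 7.94. Its groups did not overlap, and it rose by 0.71 (SE 0.07; 1.64-fold; adjusted p = 0.00043). The pair that builds lysosome-related organelles moved the same way. Rab32 read 8.47, 8.38 and 8.41 with the antibody and 7.72, 7.88 and 7.92 with IgG, a rise of 0.58 (SE 0.07; adjusted p = 0.0010). Rab38 was listed at exactly 5.17 on all 3 antibody arrays against 4.73, 4.75 and 4.81, a rise of 0.40 (SE 0.05; adjusted p = 0.00086), and its IgG mean of 4.77 lay below the background guide. Rab9, which returns mannose 6-phosphate receptors from late endosomes to the Golgi, read 9.47, 9.49 and 9.39 against 8.87, 8.96 and 8.91. All antibody arrays were the higher, by 0.54 on average (SE 0.05; adjusted p = 0.00047). Rab34, linked to lysosome positioning and macropinocytosis, rose by 0.43 (SE 0.06; adjusted p = 0.0026).

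Rab7 itself, the Rab of phagosome and late endosome fusion with lysosomes, did not pass. It read 12.34, 12.35 and 12.26 with the antibody and 12.21, 12.31 and 12.24 with IgG. The groups overlapped, and the difference of 0.06 had a 95% interval from -0.06 to 0.19 (adjusted p = 0.46), so a change as large as that of Rab7b lies outside it. For Rab9b the difference was -0.06 (interval -0.26 to 0.14) and for Rab36, 0.00 (interval -0.22 to 0.22).

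**Figure D3:**
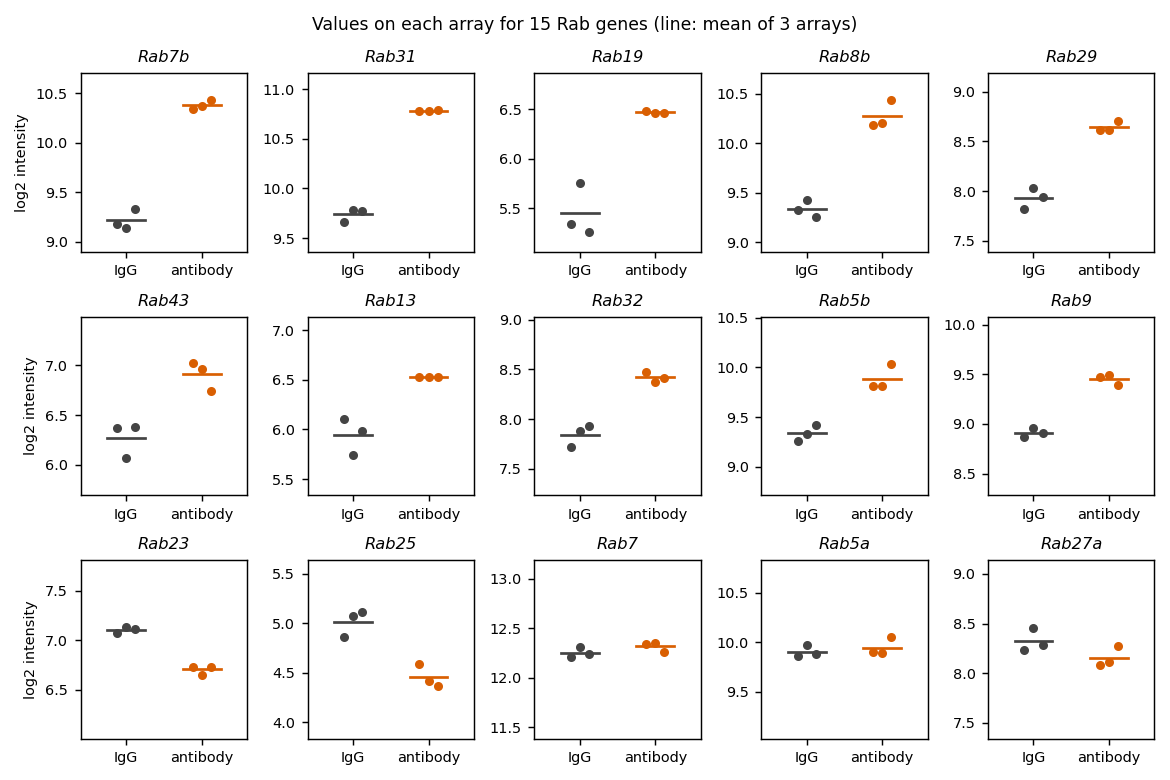
Log2 intensity of 15 Rab genes on each array, with a line at the mean of the 3 arrays of a group; every panel spans the same number of log2 units. Antibody arrays stand above IgG arrays for the first 10 genes, from Rab7b to Rab9, below them for Rab23 and Rab25, and overlap with them for Rab7, Rab5a and Rab27a.

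At the plasma membrane and early endosome, 5 of 7 Rabs rose, and the median over the 7 was 0.17. Rab31, a relative of Rab5 that carries cargo between the trans-Golgi network and endosomes, read 10.78, 10.78 and 10.79 with the antibody against 9.67, 9.78 and 9.77. Antibody replicates 1 and 2 were listed at exactly the same value, so their closeness is no measure of agreement. All antibody arrays were far above the IgG arrays, a rise of 1.04 (SE 0.05; 2.06-fold; adjusted p = 2.4e-05). Rab5b, 1 of the 3 Rab5 forms that drive early endosome fusion, read 9.81, 9.82 and 10.04 against 9.26, 9.33 and 9.42. It rose by 0.55 (SE 0.08; adjusted p = 0.0024) without overlap. Rab5c rose by 0.28 (SE 0.05; adjusted p = 0.0068). Rab5a was at 9.95 ± 0.09 and 9.91 ± 0.06 (SD, n = 3), and its difference of 0.04 (interval -0.12 to 0.20; adjusted p = 0.72) was not called under any alternative setting. Rab20, known from phagosome maturation, stood at 8.20 ± 0.07 against 8.06 ± 0.08, with overlapping groups (adjusted p = 0.16), and was called with cyclic loess (0.25; adjusted p = 0.022). Its other probe set differed by 0.02 in the main comparison (adjusted p = 0.95 over all probe sets with 1 symbol).

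The rises of Rab22a (0.17; adjusted p = 0.039), of endosomal recycling, and Rab21 (0.16; adjusted p = 0.048), which carries integrins inward, were small and less firm. With antibody replicates 1, 2 and 3 and IgG replicates 1 and 3 left out in turn, the adjusted p of Rab22a was 0.095, 0.098, 0.075, 0.098 and 0.10, and that of Rab21 was 0.12, 0.11, 0.066, 0.11 and 0.10. Both calls were also lost when arrays were centred on their medians (adjusted p = 0.060 and 0.071).

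Of 12 recycling and polarised transport genes, 4 rose and 1, Rab25, fell, with a median of 0.10. Rab8b, which takes part in delivery from the Golgi and recycling endosomes to the surface, read 10.18, 10.20 and 10.44 against 9.32, 9.43 and 9.26. The lowest antibody array was well above the highest IgG array, and the rise was 0.94 (SE 0.09; 1.92-fold; adjusted p = 0.00036). Rab13, known from cell junctions and surface delivery, was listed at 6.53 on all 3 antibody arrays against 6.10, 5.74 and 5.99, a rise of 0.59 (SE 0.09; adjusted p = 0.0037). The equal antibody values carry no spread, so the error rests on the IgG arrays and on the other genes. Rab11b, of the recycling endosome, rose by 0.27 (SE 0.04; adjusted p = 0.0040), but its other probe sets, at 0.16 and 0.22, were not called (adjusted p = 0.14 and 0.15 over all probe sets with 1 symbol). Rab8a, close kin of Rab8b, rose by 0.23 (SE 0.05; adjusted p = 0.020). Its adjusted p no longer passed without antibody replicate 2 (0.068), antibody replicate 3 (0.054), IgG replicate 1 (0.061) or IgG replicate 3 (0.051).

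Rab25, a Rab11 relative of epithelial cells, read 4.58, 4.41 and 4.37 with the antibody and 4.86, 5.08 and 5.11 with IgG. It fell by 0.56 on the log2 scale (SE 0.09; adjusted p = 0.0042) without overlap, though its mean with the antibody lay below the background guide and that with IgG, 5.01, just above it. Besides these 5, no member of this group was called in the main comparison. Rab10 differed by -0.01 (interval -0.20 to 0.19), Rab14 by 0.09 (interval -0.04 to 0.21), Rab35 by 0.12 (interval -0.01 to 0.25) and Rab11a by 0.20 (interval -0.04 to 0.44). Of these, Rab14 and Rab35 were called with cyclic loess (adjusted p = 0.044 and 0.016). Rab4a spread so widely, from 4.66 to 5.63 on the IgG arrays, that its interval ran from -0.63 to 0.60. Rab15 and Rab17, the latter an epithelial Rab, lay below the guide with differences of -0.10 and -0.18.

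Of 14 Rabs of the endoplasmic reticulum and Golgi, 4 rose, with a median of 0.19. Rab19 read 6.48, 6.47 and 6.47 with the antibody and 5.35, 5.75 and 5.26 with IgG. Its rise of 1.02 (SE 0.13; 2.02-fold; adjusted p = 0.0013) was clear of a wide IgG spread. Rab43, which acts in Golgi traffic, read 7.02, 6.97 and 6.74 against 6.37, 6.06 and 6.38, a rise of 0.64 (SE 0.11; adjusted p = 0.0062). Rab1b, needed for transport from the endoplasmic reticulum to the Golgi, read 10.79, 10.82 and 10.80 against 10.25, 10.31 and 10.29. Its arrays varied little and it rose by 0.52 (SE 0.04; 1.43-fold; adjusted p = 0.00027). Its close relative Rab1a rose by 0.21 (SE 0.06; adjusted p = 0.040), but this call was lost in the absence of antibody replicate 1 (adjusted p = 0.073), 2 (0.081) or 3 (0.10), or of IgG replicate 1 (0.11) or 3 (0.11), and with arrays centred on their medians (0.057). Rab2a, of the same route, stood at 11.07 ± 0.02 and 11.06 ± 0.03 (SD, n = 3), with an interval from -0.10 to 0.12. Rab6a, of transport within and back from the Golgi, differed by 0.08 (interval -0.07 to 0.23).

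The other members of this role were not called. Rab39, which macrophages use on phagosomes, was listed at 4.37 on all 3 antibody arrays against 3.66, 3.72 and 4.24, below the background guide throughout (0.50; adjusted p = 0.054), and without IgG replicate 3 its adjusted p was 0.00085. Rab6b differed by 0.53 (adjusted p = 0.093) on the probe set used and by 0.01 on its other, and was called without IgG replicate 2 (adjusted p = 0.022). For Rab33a, of Golgi traffic and autophagy, the difference was 0.33 (adjusted p = 0.094), and 0.024 was its adjusted p without IgG replicate 1. Rab18, found on lipid droplets, differed by 0.17 (adjusted p = 0.14) and passed with cyclic loess (adjusted p = 0.023). Rab2b and Rab33b differed by 0.14 and 0.16 (adjusted p = 0.20 and 0.24), and Rab30 and Rab39b, both below the guide, by 0.09 and -0.06.

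No Rab gene of regulated secretion was called by limma. Of the 9, 1 (Rab3d) had an unadjusted p under 0.05, and the median over the 9 was -0.02. Rab27a, which docks lysosome-related and exosome-forming compartments at the surface, read 8.08, 8.11 and 8.27 with the antibody and 8.24, 8.45 and 8.28 with IgG. The groups overlapped, and the difference was -0.17 (interval -0.36 to 0.02; adjusted p = 0.19). Its relative Rab27b lay below the guide, at 3.82 ± 0.20 and 3.92 ± 0.06 (SD, n = 3). Rab3d, an exocytic Rab of granule-bearing cells, read 7.33, 7.45 and 7.45 against 7.25, 7.14 and 7.25. The groups did not overlap, and its difference of 0.19 (SE 0.06; adjusted p = 0.053) was just over the threshold. It passed without antibody replicate 1 (adjusted p = 0.044) and under 5 other settings with adjusted p between 0.011 and 0.033. Rab3c also passed without antibody replicate 1 (0.32; adjusted p = 0.024), against 0.16 and 0.44 with all arrays. The other probe set of Rab3c differed by -0.04 with all arrays (adjusted p = 0.83 over all probe sets with 1 symbol). Rab3a, Rab26 and Rab44 lay above the guide in at least 1 group, with differences of -0.02, -0.11 and 0.08, and Rab3b and Rab37 lay below it.

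The remaining 7 members act in autophagy, at the cilium or elsewhere. Of these, 3 rose and 1 fell, with a median of 0.24. Rab23, known as a brake on Hedgehog signalling at the cilium, read 6.73, 6.65 and 6.73 against 7.07, 7.13 and 7.12. All antibody arrays were the lower, and it fell by 0.40 on the log2 scale (SE 0.05; adjusted p = 0.0012). Rab12, of receptor degradation and autophagy, rose by 0.35 (SE 0.07; adjusted p = 0.0089). Rab24, of autophagy, rose by 0.27 (SE 0.06; adjusted p = 0.016), with an adjusted p of 0.052 without IgG replicate 2. Rab40c, a Rab that forms part of a ubiquitin ligase, rose by 0.24 (SE 0.07; adjusted p = 0.043), and with antibody replicate 1 or 2 left out its adjusted p was 0.12 or 0.13, and with IgG replicate 2 or 3 left out, 0.10 or 0.092. Rab28, of the cilium, stood at 7.78 ± 0.05 and 7.75 ± 0.14. Rab40b and Rab42 lay below the guide, and each was called once an array was left out, Rab40b without antibody replicate 3 (adjusted p = 0.011) and Rab42 without IgG replicate 2 (0.014).

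Some close relatives within the family had differences of unlike size and others had nearly the same. There were 13 numbers that cover more than 1 gene, such as Rab5a, Rab5b and Rab5c. Every gene was called for 2 (Rab1 and Rab8), some for 5 (Rab5, Rab7, Rab9, Rab11 and Rab40) and none for 6. These counts stand beside 41.4% of all Rab genes called, 28.5% of all genes and 46.1% of those above the guide. How often unrelated genes give such a mix of calls was not tested. Rab7b and Rab7 were furthest apart, at 1.16 and 0.06, followed by Rab8b and Rab8a, at 0.94 and 0.23, and Rab9 and Rab9b, at 0.54 and -0.06. Rab5b and Rab5c changed by 0.55 and 0.28 and Rab5a by 0.04. Rab11b and Rab11a, at 0.27 and 0.20, lay close although only the first was called, as did Rab40c and Rab40b, at 0.24 and 0.23. Rab27a and Rab27b, neither called, stood at -0.17 and -0.10. The differences between relatives were not tested, and exact tests of 3 against 3 arrays could not have passed 0.05.

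Genes of proteins that act on Rabs moved in both directions. They came from 4 lists written from textbook knowledge, of which 114 of 124 genes were measured. Together 34 rose and 19 fell, or 29.8% and 16.7%, beside 12.5% and 16.0% of all genes, with a median of 0.04. The shares over all genes include many below the guide, which 104 of the 114 exceeded. Those 104 held all 34 that rose and all 19 that fell. Of all genes above the guide, 20.1% rose and 26.0% fell.

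Of 31 exchange factors measured, 13 rose and 7 fell (median 0.12). That is 64.5% called, beside 28.5% of all genes and 46.1% of all genes above the guide. Rab3il1, an exchange factor for Rab3 and Rab8 proteins, read 9.54, 9.58 and 9.54 against 8.33, 8.21 and 8.34, a rise of 1.26 (SE 0.05; 2.39-fold; adjusted p = 1.6e-05). Rin3, which activates Rab5 relatives including Rab31, read 8.08, 8.26 and 8.35 against 7.16, 6.98 and 7.06, a rise of 1.16 (SE 0.09; adjusted p = 0.00015). Both were far outside the spread of the arrays. Dennd4c, an exchange factor for Rab10, rose by 0.98 (SE 0.06), and Dennd5b, of the same DENN family, fell by 0.73 (SE 0.05). Among genes picked out after their values were seen, Dennd3, which activates Rab12, fell by 0.71 (SE 0.05), and Rab3ip, which encodes the Rab8 exchange factor Rabin8, fell by 0.41 (SE 0.04). Dennd3 was listed at 8.08 on all 3 antibody arrays, so its SE carries no antibody spread. Picked out likewise, the Rab7 activator genes Mon1a, Mon1b and Ccz1 differed by 0.06, -0.03 and 0.16, and of them Ccz1 alone was called (adjusted p = 0.040).

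Among 37 GTPase-activating protein genes, 12 rose and 7 fell (median 0.11), or 51.4% called, beside the same shares of 28.5% and 46.1%. The largest change was that of Tbc1d4, which holds back surface delivery of the glucose transporter GLUT4. It was listed at 8.06 on all 3 antibody arrays against 6.37, 6.06 and 6.09, a rise of 1.89 (SE 0.09; 3.69-fold; adjusted p = 2.2e-05). Tbc1d8 rose by 1.44 (SE 0.07), Tbc1d2b by 1.43 (SE 0.04) and Tbc1d9 by 1.03 (SE 0.07), each from a family that shares the Rab-inactivating TBC domain. Tbc1d2b, like Tbc1d4, was listed at the same value (8.85) on all 3 antibody arrays, so the SE of both carries no antibody spread. On the other side, and picked out after its value was seen, Usp6nl, a GAP for Rab5, fell by 0.53 (SE 0.05; adjusted p = 0.00044).

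**Figure D4:**
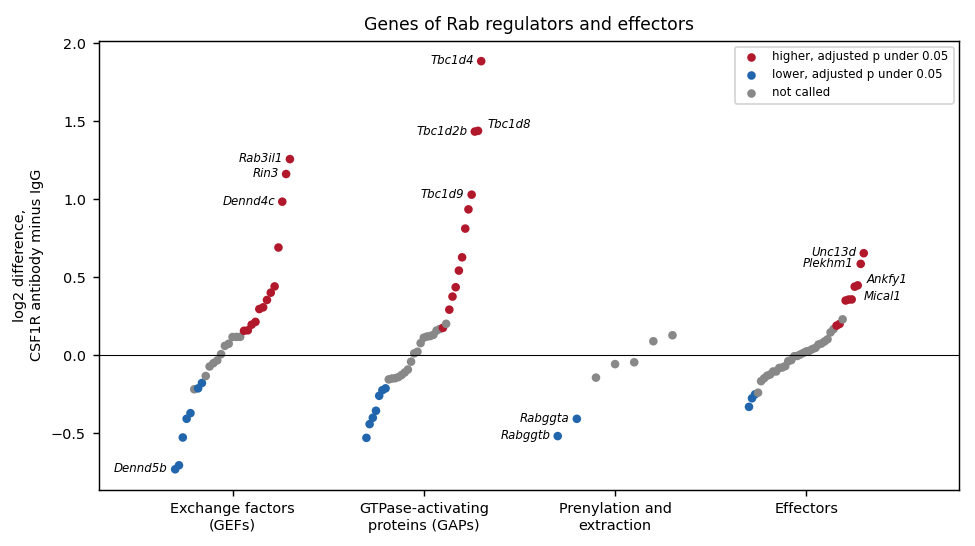
Log2 difference, antibody minus IgG, of 114 genes of Rab regulators and effectors, ordered by value within each of 4 lists; red and blue points were called higher and lower, grey points were not called, and names mark up to 4 called genes of each list with the largest change. Tbc1d4 at 1.89 and Rab3il1 at 1.26 lead the GAPs and GEFs, and both called prenylation genes lie below 0.

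Of 7 prenylation and extraction genes measured, 2 were called, both lower. That is 28.6% called, near the 28.5% of all genes. All 7 lay above the guide, where 46.1% of all genes were called and 26.0% fell. The 2 that fell encode the enzyme that attaches the lipid anchor. Rabggta, its alpha subunit, read 8.67, 8.67 and 8.72 against 9.12, 9.04 and 9.12, and fell by 0.41 (SE 0.05; adjusted p = 0.0011). Rabggtb, the beta subunit, read 7.64, 7.72 and 7.91 against 8.33, 8.23 and 8.27, and fell by 0.52 (SE 0.08; adjusted p = 0.0029). The groups did not overlap for either. Also picked out after their values were seen, the escort genes Chm and Chml and the extraction factor Gdi2, which draws GDP-bound Rabs off membranes, differed by -0.05, 0.09 and 0.13 without a call, in a list of 7 measured genes.

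Of 39 effector genes, 9 rose and 3 fell (median 0.02). That is 30.8% called, near the 28.5% of all genes. Above the guide lay 32 of the 39, with 12 called, where 46.1% of all such genes were called. Unc13d, a Rab27 effector of granule release, rose by 0.65 (SE 0.08; adjusted p = 0.0012), and Plekhm1, which links Rab7 to lysosome fusion, by 0.59 (SE 0.04; adjusted p = 0.00014). Ankfy1, a Rab5 effector of early endosomes and macropinosomes, rose by 0.45 (SE 0.05), and Mical1, an actin-oxidising enzyme that binds Rabs, by 0.44 (SE 0.04). The 3 that fell were Micall1 (-0.33), which binds Rab8 and Rab35, Uso1 (-0.28), a Golgi tether that binds Rab1, and Mlph (-0.25), which binds Rab27a. The other 5 that rose were Fyco1 (0.36), Osbpl1a (0.36), Vps41 (0.35), Vps39 (0.20; adjusted p = 0.027) and Eea1 (0.19; adjusted p = 0.044), the last an early endosome tether that binds Rab5. Both these and those that fell were named after their values were seen. So were Rilp, a Rab7 effector, which differed by 0.17 without a call (adjusted p = 0.094), and its relatives Rilpl1 and Rilpl2, at 0.08 and -0.08, also not called.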

How the data were processed

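Whole-transcript GeneChip Mouse Gene 2.0 ST arrays were hybridised with biotin-labelled RNA, 3 per group, per the labels' protocols. The deposited values are probe set intensities on a linear scale. The submitters' processing notes name RMA and limma, without role or version, and the build is not given in the sources used here. RMA as usually run makes arrays alike in distribution, which can hide a shift of most genes and tends to understate folds.

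Here log2 of the deposited intensity was taken. Of 41345 probe sets, 23521 had 1 gene symbol in the platform annotation, 1814 several and 16010 none. Of those with 1 symbol, 99.2% matched a RefSeq gene (GRCm38.p6, names only), with 0 symbols changed. Each of 22180 genes was represented by its probe set of highest mean signal over all 6 arrays. Exactly equal values, with no tolerance, on all 3 antibody arrays were listed for 540 genes, 3 of them Rab genes (Rab13, Rab38 and Rab39), and on all 3 IgG arrays for 324 genes. Some equal values among the antibody arrays were listed for 3946 genes, 13 of them Rab genes, Rab19, Rab29 and Rab31 included. Among the IgG arrays this held for 2427 genes, 2 of them Rab genes. Such ties leave less spread within a group. No array was a copy of another, with at most 6.88% of values identical.

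The group comparison used lmFit and eBayes of limma 3.58.1 under R 4.3.3 (4 residual degrees of freedom before moderation). Figures used matplotlib 3.10.9 in Python 3.11.15. SE is the moderated standard error of a log2 difference, and SD is over 3 arrays. The number of arrays limits the precision. Any Rab gene could be named. From each regulator list up to 4 called genes with the largest change, or 2 with the smallest p where none was called, were named, and the text marks the regulator genes picked out otherwise. The members and lists were chosen with earlier results of these data known. In 5 simulated runs of 3 against 3 arrays, 200 of 22180 genes were changed. Of genes changed by 0.5 (log2), 53.4% were found, and of those changed by 1, 88.0%, with 5.35% of calls false. The real comparison called 6314 genes, far more than were changed in the runs, so these rates may not hold for it. Alternatives covered scaling, filters on low signal, probe set choice, variance model, threshold, the replicate number as a block, each array left out and, added after seeing the data, genes with 3 equal values in a group left out.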

Additional observations from a re-analysis of the deposited data

Results flagged for a closer look

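Signal was present in probe sets left out of the family because they carry several symbols. The probe set annotated to Rab4b and Mia read 8.47, 8.57 and 8.66 with the antibody and 8.12, 7.99 and 8.11 with IgG. All antibody arrays lay above all IgG arrays, a difference of 0.49 (SE 0.07; limma adjusted p = 0.0077 over all 41345 probe sets). Rab4b encodes a Rab of fast endosomal recycling, and the annotation does not say which of the genes the signal belongs to. A second probe set, which also lists Mir3101, differed by 0.21 with overlapping groups (adjusted p = 0.39), and one listing Rab3b and 8030443G20Rik by 0.04 (adjusted p = 0.79).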

How the results depend on the processing

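Over the 18 alternatives run, the count of Rab genes called higher lay between 16 (adjusted p under 0.01) and 27 (cyclic loess), against 22, and 2 were lower except with genes under the 50th percentile of mean signal left out, where Rab25 was not tested and 1 was lower. The family median of 0.17 was 0.26 with cyclic loess, and 0.17, 0.19 and 0.18 with filters at the 25th percentile, the 50th percentile and the receptor guide, where fewer genes were tested. Leaving out each array gave 17 to 22 Rab genes higher, 2 lower, medians of 0.17 to 0.18, 24 to 30 regulators higher and 15 to 19 lower, and 5285 to 6045 genes called. Of the 24 called members, 18 were called under every alternative that tested them, and 11 of 34 others were called under at least 1. No called member changed sign. With the replicate number as a block, 19 Rab genes were higher and 2 lower, and 5549 genes were called. Same-numbered arrays did not deviate together (r = 0.03, -0.05 and 0.0030 over genes), and 1 of 6 arrays correlated best with its own number. With genes of 3 equal values left out, 19 Rab genes were higher and 2 lower.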
